A study of Mus musculus with 2 samples.

Results

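Type I interferon response genes are the genes a cell switches on after an interferon alpha or beta signal reaches its receptor. The 31 described here were matched by symbol among the 26033 genes listed for each of 2 single-cell libraries of adult mouse brain, and all 31 were found in both. One library is from mutant mice, Mrc1Cre:Csf1rfl/fl, and the other from control mice, Csf1rfl/fl. All animals therefore carry a floxed Csf1r, the receptor for colony-stimulating factor 1 and interleukin-34, and in the mutant Cre is made from the locus of Mrc1, a marker gene of border-associated macrophages (BAMs). The sort was for mural cells, fibroblasts, endothelial cells, astrocytes, BAMs and microglia of the whole brain. How many animals were pooled for a library is not given in the sources used here. With 1 library per genotype there is no spread between animals to set a difference against, so no p-value is printed, and every interval is a 95% interval that covers counting error only.

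Type I interferons bind a receptor made of IFNAR1 and IFNAR2, whose kinases JAK1 and TYK2 phosphorylate STAT transcription factors, STAT2 among them. With IRF9 these form the complex ISGF3, which binds the interferon-stimulated response element (ISRE) in the promoters of the response genes. Their products sense foreign nucleic acid, bind or degrade viral RNA, block virus entry and release and, in the case of USP18, dampen the receptor.

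Promoters are shown because this element is what the genes are known for. RefSeq promoters of GRCm38.p6, from 250 bases before to 50 bases after a gene start, were matched to 24 of the 31 members. The ISRE core searched was GAAANNGAA on either strand, with overlapping matches counted. It was found in 14 of the 24 members (58.3%), against 9.76% of the 27025 genes in the same table, and 8 of the members held at least 2 matches, against 0.736% of genes. The GAS motif TTCNNNGAA, known from genes that respond to interferon gamma, was found in 5 of the 24 members (20.8%), against 9.55% of genes. A match is a run of letters and not a shown binding site. The 160 bases before the start are printed for 6 members, 5′ to 3′ on the gene's own strand, with core matches in capitals. Ifit1, Ifit3, Isg15 and Rsad2 are members on which the results turn, Bst2 is a member found in most cells of several classes, and Herc6 has no match in its window.
Ifit1: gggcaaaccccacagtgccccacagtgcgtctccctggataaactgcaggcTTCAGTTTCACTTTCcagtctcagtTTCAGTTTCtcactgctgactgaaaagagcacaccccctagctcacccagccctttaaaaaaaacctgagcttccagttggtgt
Ifit3: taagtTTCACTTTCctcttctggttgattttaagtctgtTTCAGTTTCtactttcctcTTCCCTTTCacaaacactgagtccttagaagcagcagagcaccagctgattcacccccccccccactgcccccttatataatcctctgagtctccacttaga
Isg15: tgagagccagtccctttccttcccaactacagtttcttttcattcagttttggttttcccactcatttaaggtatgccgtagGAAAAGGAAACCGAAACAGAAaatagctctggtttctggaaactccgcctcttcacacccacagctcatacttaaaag
Rsad2: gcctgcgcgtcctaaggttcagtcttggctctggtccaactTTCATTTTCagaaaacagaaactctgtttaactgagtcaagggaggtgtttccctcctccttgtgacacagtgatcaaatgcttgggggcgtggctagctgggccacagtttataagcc
Bst2: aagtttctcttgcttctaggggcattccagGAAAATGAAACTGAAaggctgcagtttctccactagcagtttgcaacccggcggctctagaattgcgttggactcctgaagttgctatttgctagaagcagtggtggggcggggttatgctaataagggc
Herc6: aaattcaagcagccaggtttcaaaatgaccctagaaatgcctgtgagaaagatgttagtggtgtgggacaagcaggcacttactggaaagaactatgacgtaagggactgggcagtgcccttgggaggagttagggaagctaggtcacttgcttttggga
In GRCm38.p6 the windows lie at chr19:34640729-34640888 on the plus strand for Ifit1, chr19:34583369-34583528 on the plus strand for Ifit3, chr4:156200819-156200978 on the minus strand for Isg15, chr12:26456453-26456612 on the minus strand for Rsad2, chr8:71537473-71537632 on the minus strand for Bst2 and chr6:57580832-57580991 on the plus strand for Herc6. Ifit1, Ifit3 and Isg15 held 3 matches each, Bst2 held 2 and Rsad2 held 1, all before the start. The 4 IFIT genes lie within 99.3 kb of chromosome 19, and Rsad2 and Cmpk2 lie next to each other on chromosome 12 in opposite directions.

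The mutant matrix held 82806348 unique molecular identifiers (UMIs, each a counted transcript) in 8735 barcodes, and the control matrix 85716531 in 8739. Filters left 6115 mutant and 5617 control cells, and 17 barcode sequences occur in both libraries. A cell entered a class when at least 3 of the 8 markers of that class had 2 or more UMIs and their number led that of every other class by at least 2, which placed 85.0% of mutant and 87.7% of control cells in 6 classes. The classes are called choroid plexus-like, fibroblast-like, BAM-like, microglia-like, endothelium-like and astrocyte-like. They held 1072, 287, 99, 3370, 140 and 229 mutant cells and 625, 107, 267, 3183, 113 and 632 control cells in that order. Choroid plexus epithelium is not named in the sort. Median UMIs per cell ran from 3578 in endothelium-like to 14694 in choroid plexus-like cells of the mutant, and from 3909 to 16984 in the same classes of the control. Cells at the limit of the gate made up 48.4% of mutant and 41.1% of control fibroblast-like cells and at most 18.6% of another class. Fibroblast-like cells also carried astrocyte markers at 1719.7 CPM (UMIs per 1000000 UMIs of the class) in the mutant and 1715 CPM in the control and endothelial markers at 538 and 363 CPM, so the name stands for the gate and not for one cell type. In a clustering of all cells, 86.8% of mutant and 67.3% of control fibroblast-like cells lay in the same cluster, and the microglia-like class was spread over several, of which the first held 27.2% of the cells in each library but was a different one in each. Csf1r, the targeted gene, was at 1175 CPM in mutant and 1384 CPM in control BAM-like cells and at 1834 and 2321 CPM in microglia-like cells. Since 3′ reads need not cover the excised exons, these values do not check the deletion.

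Summed over the 31 members, BAM-like and endothelium-like cells had the highest levels and astrocyte-like cells the lowest in both libraries. BAM-like cells were at 5104 CPM (4957 to 5255) in the mutant and 4126 CPM (4051 to 4202) in the control, and endothelium-like cells at 4079.7 CPM (3909 to 4256) and 3604 CPM (3435 to 3779). Fibroblast-like cells were at 1909.8 and 2045 CPM, microglia-like cells at 888 and 858 CPM, choroid plexus-like cells at 524 and 449.5 CPM, and astrocyte-like cells at 262 and 259.8 CPM, the mutant value first in each pair. The order of the 6 classes was thus alike in both libraries. It was another over the 15 most inducible members (named further on) alone. These summed to 1277.6 CPM in mutant and 913 CPM in control endothelium-like cells, 888 and 581 CPM in BAM-like, 362 and 332 CPM in fibroblast-like, and 83.1 and 92.6 CPM in microglia-like cells. They summed to 59.6 and 81.8 CPM in astrocyte-like and 44.2 and 19.1 CPM in choroid plexus-like cells, the lowest class by this sum in both libraries. Member by member, 26 of the 31 had their highest class in common between the libraries, which was endothelium-like for 14 and BAM-like for 12. For the other 5 (Ifit3b, Irf9, Oasl2, Ddx58 and Herc6) the highest class was BAM-like in one library and endothelium-like in the other.

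**Figure D1:**
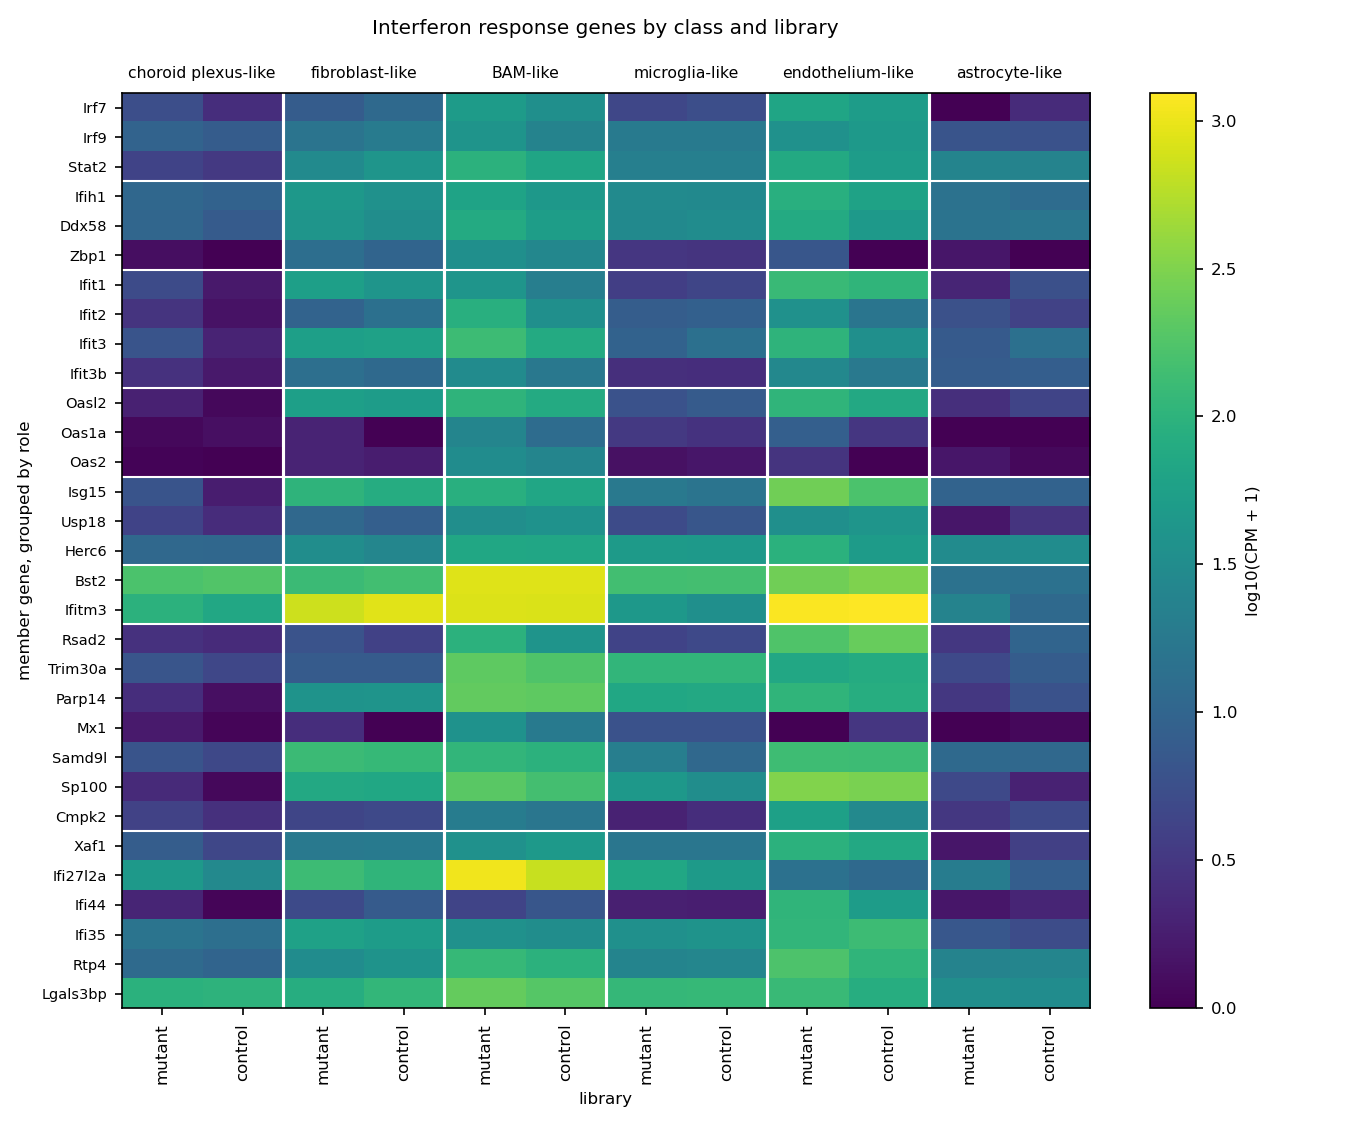
Level of each of the 31 members, as log10 of CPM plus 1, in the 6 classes, with the mutant column left of the control column and genes grouped by role. BAM-like and endothelium-like columns are brightest for most rows, Ifi27l2a is bright in BAM-like cells at 1064 CPM in the mutant and 677 CPM in the control, and Oas1a and Oas2 are dark in choroid plexus-like and astrocyte-like columns.

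Transcripts of one class were also counted in cells of the others. Choroid plexus markers, at 309283 CPM in mutant and 318956 CPM in control choroid plexus-like cells, were at 2173 CPM in mutant and 1989 CPM in control microglia-like cells. Microglial markers were at 109.7 and 113 CPM in choroid plexus-like cells, against 10410.1 and 10921 CPM in microglia-like cells. No class is known to lack the response genes, so for each member the class with the lowest level stands in as the background. Ifi27l2a had a UMI in 83.8% of mutant and 69.7% of control BAM-like cells (median 7849 and 7533 UMIs per cell), against 2.86% and 3.54% of endothelium-like cells (median 3578 and 3909). Endothelium-like cells had its lowest level in the mutant, at 13.3 CPM. In the control they were at 10.5 CPM, and astrocyte-like cells were lowest at 7.32 CPM. Endothelium-like cells are also shallower than BAM-like cells, so these shares are not at equal depth.

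A member was measured in a class when both libraries together held at least 50 of its UMIs there. It counted as higher or lower in the mutant when its ratio of CPM, mutant over control, reached 1.5 or fell to its inverse or below. In choroid plexus-like cells 20 members were measured, of which 9 were higher (3.65% of all 10726 measured genes were) and none lower (1.4% of genes). In BAM-like cells 30 were measured, with 9 higher (5.1% of 7682 genes) and none lower (6.33%). In endothelium-like cells 21 were measured, with 7 higher (5.64% of 4219 genes) and none lower (6.33%). The share of higher members was above that of all genes in these 3 classes. In choroid plexus-like and BAM-like cells the counts rest in part on the cells with the highest levels. Since members set the ranking of cells, leaving such cells out removes member UMIs by design. Without the highest 5% of cells by summed CPM of the 15 most inducible members, 2 of the 15 choroid plexus members still measured were higher, Xaf1 and Cmpk2. Without the highest 5 cells of each library, 4 of the 27 BAM members still measured were higher and 1 was lower. The 5 cells are a larger part of the 99 mutant than of the 267 control BAM-like cells, so this cut weighs more on the mutant. In fibroblast-like cells none of the 22 measured was higher (6.46% of 9408 genes) or lower (5.6%), but this count depends on which cells are taken. It was 3 higher and 2 lower with a strict gate, 6 higher and 1 lower with clusters named by the gate, and 1 higher and 2 lower without the highest 5% of cells. The ratio of the summed level, 0.934 in fibroblast-like cells, was 1.18 with clusters. In microglia-like cells 1 of 30 was higher (4.09% of 12945 genes) and 2 were lower (4.68%), shares near those of all genes. In astrocyte-like cells 2 of 15 were higher (5.32% of 10465 genes) and 3 lower (3.28%), and both shares, 13.3% and 20%, were above those of all genes on these few members. With a mitochondrial cap of 20% in place of 10%, 7 were higher and 2 lower there. The shares of all genes were computed only with the filters and gate described above. Counts of members under any other choice of cells therefore have no such share beside them, and whether all genes shifted alike was not tested. The median log2 ratio of the measured members was 0.52 in choroid plexus-like cells, against 0.06 over all measured genes, 0.41 against 0.01 in BAM-like cells and 0.43 against 0.01 in endothelium-like cells. It was 0.09 against 0.03 in fibroblast-like, -0.01 against -0.02 in microglia-like and 0.02 against 0.03 in astrocyte-like cells. Members can respond to a shared signal and were not taken as independent of each other. A low member can also pass the minimum through the library where it is high. These counts therefore describe a pair of libraries and test nothing. All members were measured in at least 1 class, 11 in all 6, and Oas2 in BAM-like cells alone.

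**Figure D2:**
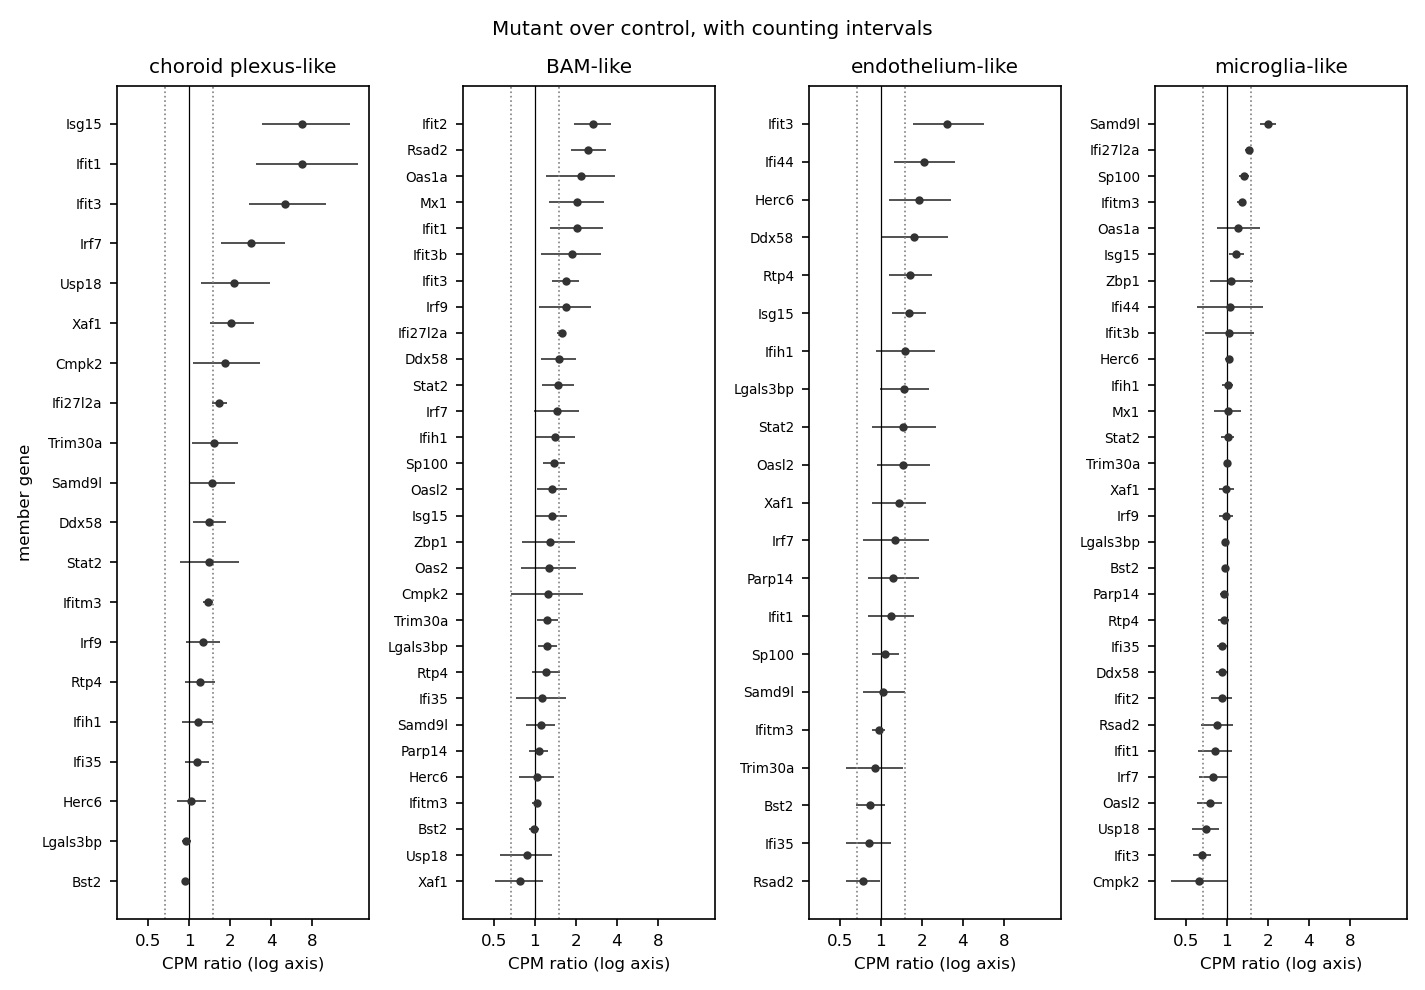
Ratio of CPM, mutant over control, for each measured member in 4 classes on a log axis, with exact 95% counting intervals as bars, a solid line at 1 and dotted lines at 1.5 and its inverse. Isg15, Ifit1 and Ifit3 lead in choroid plexus-like cells at 6.79, 6.73 and 5.09, while most microglia-like points lie near 1 and Samd9l stands apart at 2.0.

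The transcription factors come first. Irf7, which amplifies the interferon response and is itself induced by it, was higher in mutant choroid plexus-like cells, with 78 UMIs (4.51 CPM) in the mutant and 18 UMIs (1.57 CPM) in the control. The ratio was 2.88 (1.71 to 5.11), and it was 1.67 when the highest 5% of cells were left out of each library, on 42 UMIs left in both together, below the minimum of 50. Cells with a UMI of Irf7 made up 4.85% of the mutant and 2.56% of the control class. Irf9, the DNA-binding part of ISGF3, was higher in mutant BAM-like cells, at 39.2 CPM in the mutant and 23.4 CPM in the control, and the ratio was 1.68 (1.08 to 2.57). Its UMIs were spread over cells: 29 of 99 mutant and 50 of 267 control cells had one, and no cell had more than 3. Stat2, another part of ISGF3, stayed within 1.5-fold in all 6 classes, and BAM-like cells had it at 95.3 CPM in the mutant and 64.5 CPM in the control, for a ratio of 1.48.

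Among the nucleic acid sensors, Ifih1 (MDA5) and Ddx58 (RIG-I), which recognise viral RNA in the cytosol, were measured in every class. In endothelium-like cells Ifih1 was at 89.2 CPM in the mutant and 59 CPM in the control with a ratio of 1.51 (0.927 to 2.51), and Ddx58 at 77.8 and 44.3 CPM with a ratio of 1.76 (1.01 to 3.13). The interval of Ifih1 includes 1. In microglia-like cells the libraries were close, at 29.1 CPM in the mutant and 28.5 CPM in the control for Ifih1 and 28.8 and 31.4 CPM for Ddx58. Zbp1, a sensor of left-handed nucleic acid that can trigger necroptosis, was highest in BAM-like cells at 33.6 CPM in the mutant and 26.2 CPM in the control, and in endothelium-like cells it had 3 UMIs in the mutant and 0 in the control.

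The IFIT proteins bind viral RNA that lacks features of host mRNA and block its translation. In choroid plexus-like cells Ifit1 had 71 UMIs (4.1 CPM) in the mutant and 7 (0.609 CPM) in the control, with a ratio of 6.73 (3.1 to 17.4). Ifit3 had 92 UMIs (5.32 CPM) in the mutant and 12 (1.04 CPM) in the control, with a ratio of 5.09 (2.78 to 10.2). Few cells carried either gene: 26 of the 1072 mutant and 6 of the 625 control cells had Ifit1, and for Ifit3 these were 29 and 11. The share of cells with Ifit3 was the lowest of the 6 classes in both libraries (2.71% and 1.76%). This class is thus itself the stand-in for the background of Ifit3, and its share cannot be set against a lower one. The share with Ifit1 was 2.43% in the mutant and 0.96% in the control, against 0.873% and 1.58% of astrocyte-like cells. Without the highest 5% of cells the ratio was 0.893 for Ifit1 and 0.913 for Ifit3, below 1 for both, on 7 and 26 UMIs left in both libraries together. Ifit2 did not reach the minimum in this class, and 1 mutant cell held 28 of its 33 mutant UMIs (84.8%), against 5 UMIs in all of the control.

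In BAM-like cells, where Ifit2 and Ifit3 were highest, Ifit2 was at 88.5 CPM (79 UMIs) in the mutant and 33.3 CPM (94 UMIs) in the control, with a ratio of 2.66 (1.95 to 3.63). Ifit3 was at 130.0 CPM (107 to 156) in the mutant and 77.2 CPM (67.3 to 88.2) in the control, with a ratio of 1.68 (1.33 to 2.12). Ifit1 was at 40.4 CPM in the mutant and 19.8 CPM in the control, with a ratio of 2.03 (1.3 to 3.15). All 3 genes were carried by a minority of cells. Detection of Ifit1 was 10.1% in the mutant and 10.5% in the control, of Ifit2 16.2% and 11.2%, and of Ifit3 27.3% and 24%. A single cell held 41.7% of mutant and 26.8% of control Ifit1 UMIs and 41.8% and 25.5% of Ifit2 UMIs. Without the highest 5% of cells the ratios were 1.7 for Ifit1, 1.65 for Ifit2 and 1.45 for Ifit3. Without the highest 5 cells of each library, a larger part of the 99 mutant than of the 267 control cells, they were 1.11, 1.33 and 1.12 in the same order, all below 1.5.

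In endothelium-like cells Ifit3 was at 103 CPM (54 UMIs) in the mutant and 33.7 CPM (16 UMIs) in the control, with a ratio of 3.04 (1.71 to 5.69), and it was detected in 23 of 140 mutant and 10 of 113 control cells. Ifit1 was closer there, in its highest class, at 123 CPM in the mutant and 103 CPM in the control (ratio 1.19). Ifit3 ran the other way in microglia-like cells, at 8.46 CPM (276 UMIs) in the mutant and 12.9 CPM (414 UMIs) in the control, with a ratio of 0.656 (0.561 to 0.765), and 0.746 without the highest 5% of cells. It was also lower in mutant astrocyte-like cells, at 12 UMIs (6.51 CPM) in the mutant and 82 (13 CPM) in the control, for a ratio of 0.499 (0.248 to 0.919). There 1 control cell held 29.3% of the UMIs, and the ratio was 1.0 without the highest 5% of cells. Ifit3b, a near copy of Ifit3, was at 30.3 CPM in mutant and 16.3 CPM in control BAM-like cells (ratio 1.86), and its ratio was 0.981 without the highest 5 cells. Transcripts of Ifit3 and Ifit3b are 98.0% identical over 1697 aligned bases, so the split of reads between them is uncertain.

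The OAS genes encode oligoadenylate synthetases, which activate RNase L, and the related protein of Oasl2. Oas1a was at 24.7 CPM in mutant and 11.3 CPM in control BAM-like cells, its highest class, and the ratio was 2.18 (1.2 to 3.86). It was detected in 19 of 99 mutant and 29 of 267 control cells, with at most 2 UMIs in a cell. Its transcript is 97.8% identical to that of Oas1g over 1857 aligned bases, so this count is uncertain as well. Oas2 was at 31.4 and 24.8 CPM in mutant and control BAM-like cells. Oasl2 was at 102 CPM in mutant and 76.5 CPM in control BAM-like cells, and at 104 and 71.7 CPM in endothelium-like cells, within 1.5-fold in both.

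Isg15 is a ubiquitin-like protein attached to other proteins, Usp18 removes it, and Herc6 is the main ligase for it in mice. In choroid plexus-like cells Isg15 had 92 UMIs (5.32 CPM) in the mutant and 9 (0.784 CPM) in the control, with a ratio of 6.79 (3.42 to 15.3). Its cells numbered 31 in the mutant and 6 in the control, and the ratio without the highest 5% of cells was 2.28, on 22 UMIs left in both libraries together, below the minimum of 50. These shares, too, were the lowest of the 6 classes in both libraries (2.89% and 0.96%), so they cannot be set against a background either. In endothelium-like cells, its highest class, Isg15 was at 266 CPM (224 to 314) in the mutant and 164 CPM (130.0 to 205) in the control, with a ratio of 1.62 (1.22 to 2.16) that was 1.62 without the highest 5% of cells. Usp18 had 55 UMIs (3.18 CPM) in mutant and 17 (1.48 CPM) in control choroid plexus-like cells, with a ratio of 2.15 (1.23 to 3.95). Herc6 was higher in mutant endothelium-like cells, at 93 CPM (49 UMIs) in the mutant and 48.5 CPM (23 UMIs) in the control, with a ratio of 1.92 (1.15 to 3.3). In the other 5 classes its ratio lay between 0.966 and 1.24.

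Bst2, which tethers budding virus particles to the cell surface, and Ifitm3, which blocks virus entry at endosomes, were found in most cells of several classes. Bst2 was detected in 88.9% of mutant and 88.8% of control BAM-like cells, 64.2% and 68.5% of choroid plexus-like cells and 60.4% and 61.9% of microglia-like cells. Its ratios there were 0.989 (0.912 to 1.07), 0.938 (0.886 to 0.994) and 0.975 (0.935 to 1.02) in that order, all close to 1. Ifitm3 was at 1196 CPM in mutant and 1239.9 CPM in control endothelium-like cells (ratio 0.965), at 851 and 826 CPM in BAM-like cells and at 726 and 901 CPM in fibroblast-like cells. In astrocyte-like cells Ifitm3 had 43 UMIs (23.3 CPM) in the mutant and 66 (10.5 CPM) in the control, with a ratio of 2.22 (1.48 to 3.31). Mural markers summed there to 100.3 CPM in the mutant and 19.6 CPM in the control. Only 3 of the 8 mural markers had a UMI in the mutant, against 5 of 8 in the control, and the median cell was at 0 in both. Their part in the result was not tested.

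Rsad2 (viperin), which makes a nucleotide that stops viral polymerases, was highest in endothelium-like cells, at 175 CPM in the mutant and 234 CPM in the control, with a ratio of 0.746 (0.56 to 0.993). In BAM-like cells it was at 96.4 CPM (86 UMIs) in the mutant and 39 CPM (110 UMIs) in the control, with a ratio of 2.47 (1.84 to 3.31). A single cell held 37.2% of these UMIs in the mutant and 36.4% in the control. The ratio was 2.48 without the highest 5% of cells but 1.43 when each cell was given the same weight, so its size rests on how cells are weighted. In astrocyte-like cells Rsad2 had 4 UMIs in the mutant and 57 in the control, with a ratio of 0.239 (0.063 to 0.647), and 0.717 without the highest 5% of cells.

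Cmpk2, a nucleotide kinase gene next to Rsad2, was higher in mutant choroid plexus-like cells, with 53 UMIs (3.06 CPM) in the mutant and 19 (1.65 CPM) in the control, and a ratio of 1.85 (1.08 to 3.31). The microglia-like class had 32 UMIs (0.981 CPM) of Cmpk2 in the mutant and 50 (1.56 CPM) in the control. The ratio was 0.63 (0.391 to 1.001), an interval that includes 1, and it was 0.936 without the highest 5% of cells. The GTPase gene Mx1 was highest in BAM-like cells, at 37 CPM in the mutant and 18.1 CPM in the control with a ratio of 2.05 (1.28 to 3.23), and 1.09 with equal weight per cell.

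Samd9l, an antiviral factor that restrains translation, was the 1 member higher in mutant microglia-like cells. It had 656 UMIs (20.1 CPM) in the mutant and 323 (10.1 CPM) in the control, with a ratio of 2.0 (1.75 to 2.29). Cells with a UMI made up 12.6% (11.5 to 13.8) of the mutant and 6.5% (5.67 to 7.42) of the control class, and 3.45% and 1.7% after every cell was thinned to 2000 UMIs. The lowest class, choroid plexus-like cells, had shares of 6.9% in the mutant and 6.08% in the control (median 14694 and 16984 UMIs per cell, against 8520 and 8618 in microglia-like cells), and 0.937% and 0.325% after thinning. The control share in microglia-like cells was thus not above background before thinning, where the choroid plexus-like cells were deeper. After thinning, the control share of 1.7% was above the 0.325% of choroid plexus-like cells and close to that of astrocyte-like cells (1.75% in the mutant and 1.75% in the control). No microglia-like cell held more than 12 UMIs of Samd9l, and the ratio there without the highest 5% of cells was 2.36. In the other 5 classes the ratio of Samd9l lay between 1.03 and 1.47.

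Trim30a, which restrains inflammatory signalling in mice, was detected in 53.1% of mutant and 52.8% of control microglia-like cells, where its ratio was 1.0, and in BAM-like cells it was at 213 and 172 CPM. Its ratio was 1.54 (1.06 to 2.28) in choroid plexus-like cells, where it was 0.833 without the highest 5% of cells, and 0.542 (0.206 to 1.21) in astrocyte-like cells, an interval that includes 1. Parp14, an ADP-ribosyltransferase, was at 225 CPM in mutant and 210.4 CPM in control BAM-like cells and at 68.2 and 71.8 CPM in microglia-like cells. Sp100, a protein of nuclear bodies, was at 319 CPM in mutant and 295 CPM in control endothelium-like cells. In choroid plexus-like cells 14 of the 23 mutant UMIs of Sp100 lay in 1 cell, against 2 UMIs in all of the control.

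Ifi27l2a, a small membrane protein gene induced by interferon, was at 1064 CPM (997 to 1134) in mutant and 677 CPM (647 to 708) in control BAM-like cells, with a ratio of 1.57 (1.45 to 1.7). Its share of cells with a UMI was 83.8% (75.1 to 90.5) in the mutant and 69.7% (63.8 to 75.1) in the control. In microglia-like cells it was at 68.9 CPM in the mutant and 47 CPM in the control (ratio 1.47), and in choroid plexus-like cells at 46.1 and 27.5 CPM (ratio 1.67, and 1.33 without the highest 5% of cells). The ratio was above 1 in the 5 classes where it was measured. In astrocyte-like cells it was 2.59 (1.62 to 4.11), on 35 UMIs in the mutant and 46 in the control.

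Xaf1, which promotes apoptosis, had 126 UMIs (7.28 CPM) in mutant and 41 (3.57 CPM) in control choroid plexus-like cells, with a ratio of 2.04 (1.42 to 2.98), and 1.6 without the highest 5% of cells. In BAM-like cells it was at 35.9 CPM in the mutant and 46.4 CPM in the control, for a ratio of 0.773 (0.508 to 1.14). Ifi44 was highest in endothelium-like cells, at 104 CPM (55 UMIs) in the mutant and 50.6 CPM (24 UMIs) in the control, with a ratio of 2.06 (1.26 to 3.49). Rtp4, a chaperone of membrane receptors, was higher in the same cells, at 169 CPM in the mutant and 103 CPM in the control, with a ratio of 1.64 (1.14 to 2.37). Lgals3bp, a secreted glycoprotein, and Ifi35 stayed within 1.5-fold wherever they were measured. Lgals3bp was detected in 66.1% of mutant and 69.1% of control choroid plexus-like cells, and Ifi35 was at 106 CPM in mutant and 131 CPM in control endothelium-like cells. Of the promoter windows, Irf7, Xaf1 and Cmpk2 held no match to the ISRE core, Trim30a held 1, and Ifit1, Ifit3 and Isg15 held the 3 printed above, and all 7 were higher in mutant choroid plexus-like cells.

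The spread over cells was read from the 15 most inducible members, which are the IFIT and OAS genes with Isg15, Usp18, Irf7, Rsad2, Cmpk2, Ifi44, Rtp4 and Zbp1. Most cells had no UMI of these in choroid plexus-like cells (74.4% in the mutant and 76.3% in the control), microglia-like cells (72.8% and 70.7%) and astrocyte-like cells (66.8% and 63.1%). Such cells were fewer among BAM-like (29.3% and 33.3%), fibroblast-like (28.6% and 26.2%) and endothelium-like cells (20% and 27.4%). Endothelium-like cells, the shallowest class, thus had the fewest cells without a UMI of the set in the mutant, and their median cell was at 654 CPM in the mutant and 511 CPM in the control.

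**Figure D3:**
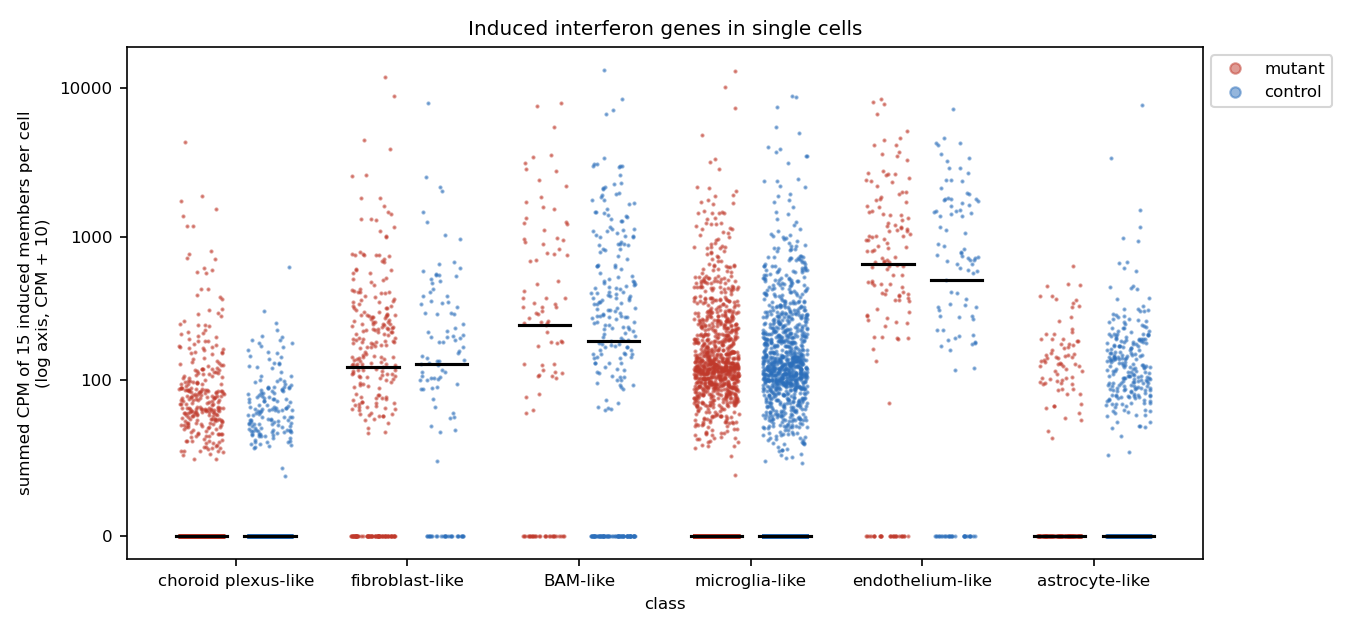
Summed CPM of the 15 most inducible members in each cell (1 point per cell, log axis of CPM plus 10) for the 6 classes, mutant left of control, with black bars at the median. The medians of choroid plexus-like, microglia-like and astrocyte-like cells lie at 0, and the highest cell reaches 12953 CPM among mutant and 8774 CPM among control microglia-like cells.

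Cells with several of the 15 members at once were compared after every cell was thinned to 2000 UMIs, which left out 5, 1, 4, 63, 30 and 1 shallower mutant cells and 9, 0, 15, 72, 22 and 3 control cells in the class order given above. At least 3 of the 15 were then detected in 27 of 110 mutant (24.5%, 16.8 to 33.7) and 21 of 91 control endothelium-like cells (23.1%, 14.9 to 33.1). In BAM-like cells the share was 17 of 95 (17.9%, 10.8 to 27.1) in the mutant and 27 of 252 (10.7%, 7.18 to 15.2) in the control, and the intervals overlap. Those cells held 72.6% of mutant and 46.3% of control UMIs of the 15 members in the BAM-like class. At a depth of 4000 UMIs the BAM-like shares were 23.3% (14.8 to 33.6) in the mutant and 21.1% (16 to 27) in the control, a smaller gap. At the same depth 39.5% of mutant and 32.6% of control BAM-like cells had at least 2 of the 15, and 16.3% (9.2 to 25.8) and 9.69% (6.17 to 14.3) had at least 5, with intervals that overlap. In microglia-like cells the share at 2000 UMIs was 0.635% (0.394 to 0.969) in the mutant and 0.868% (0.573 to 1.26) in the control (1.56% and 1.43% at 4000), and those 21 and 27 cells held 27.0% and 32.7% of the UMIs. Cells with several of these genes at once were thus rare among microglia-like cells of both genotypes and held a large part of the UMIs. Choroid plexus-like cells had 3 such cells of 1067 in the mutant and 0 of 616 in the control, which allows a share of up to 0.487% (3 cells of the total). Fibroblast-like cells had 3.85% in the mutant and 4.67% in the control, and astrocyte-like cells 0 of 228 (up to 1.32%) in the mutant and 5 of 629 in the control.

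**Figure D4:**
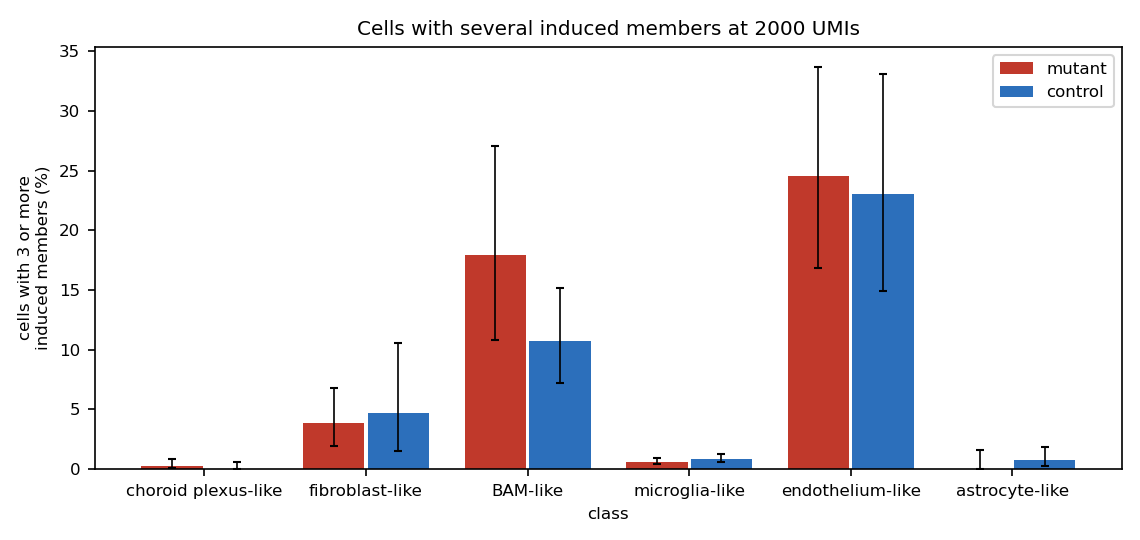
Share of cells in which at least 3 of the 15 most inducible members were detected after thinning to 2000 UMIs, mutant bar left of control bar, with exact 95% counting intervals. Endothelium-like bars are near equal at 24.5% and 23.1%, BAM-like bars are at 17.9% and 10.7%, and those of choroid plexus-like, microglia-like and astrocyte-like cells stay below 1%.

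A large part of the UMIs of some members lay in 1 cell. Leaving out the highest cell of each gene still kept all 33 ratios past 1.5-fold within their counting intervals. In mutant choroid plexus-like cells 1 cell of 33400 UMIs carried all 8 choroid plexus markers, 30 of the 31 members and 14 of the 15 most inducible ones, and it held 19% of the class's UMIs of those 15. It was the highest cell for 17 of the 25 members with at least 20 UMIs there. The same cell was positive for 3 markers of another class, where the median cell of its class was positive for 2. The median cell of its class had 14694 UMIs. Whether this barcode held more than 1 cell was not tested beyond the doublet filter. No control choroid plexus-like cell carried more than 11 members. Members with at least 25% of their UMIs in 1 cell, out of 20 UMIs or more, were Ifit2 (84.8%), Sp100 (60.9%), Ifit3b (41.9%), Parp14 (40.7%), Ifit3 (38%) and Rsad2 (25.8%) in mutant choroid plexus-like cells and none in the control. In fibroblast-like cells they were Ifit1 (30.1%), Irf7 (29.6%), Rsad2 (40%) and Trim30a (30.8%) in the mutant and Ifit1 (30.2%), Ifit3 (27.3%) and Isg15 (26.9%) in the control. BAM-like cells had Ifit1, Ifit2 and Rsad2 in both libraries, as given above, and Ifit3b (25.9%) in the mutant. In control microglia-like cells it was Ifi44 (40.7%), and in control astrocyte-like cells Ifit3, Rsad2 (29.8%), Oasl2 (38.1%) and Ifi27l2a (32.6%). Endothelium-like cells had none in either library. Cells with nearly the whole set occurred in both genotypes. The microglia-like cell with the highest level carried 27 members and 12 of the 15 in the mutant, and 30 members and all 15 in the control.

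**Figure D5:**
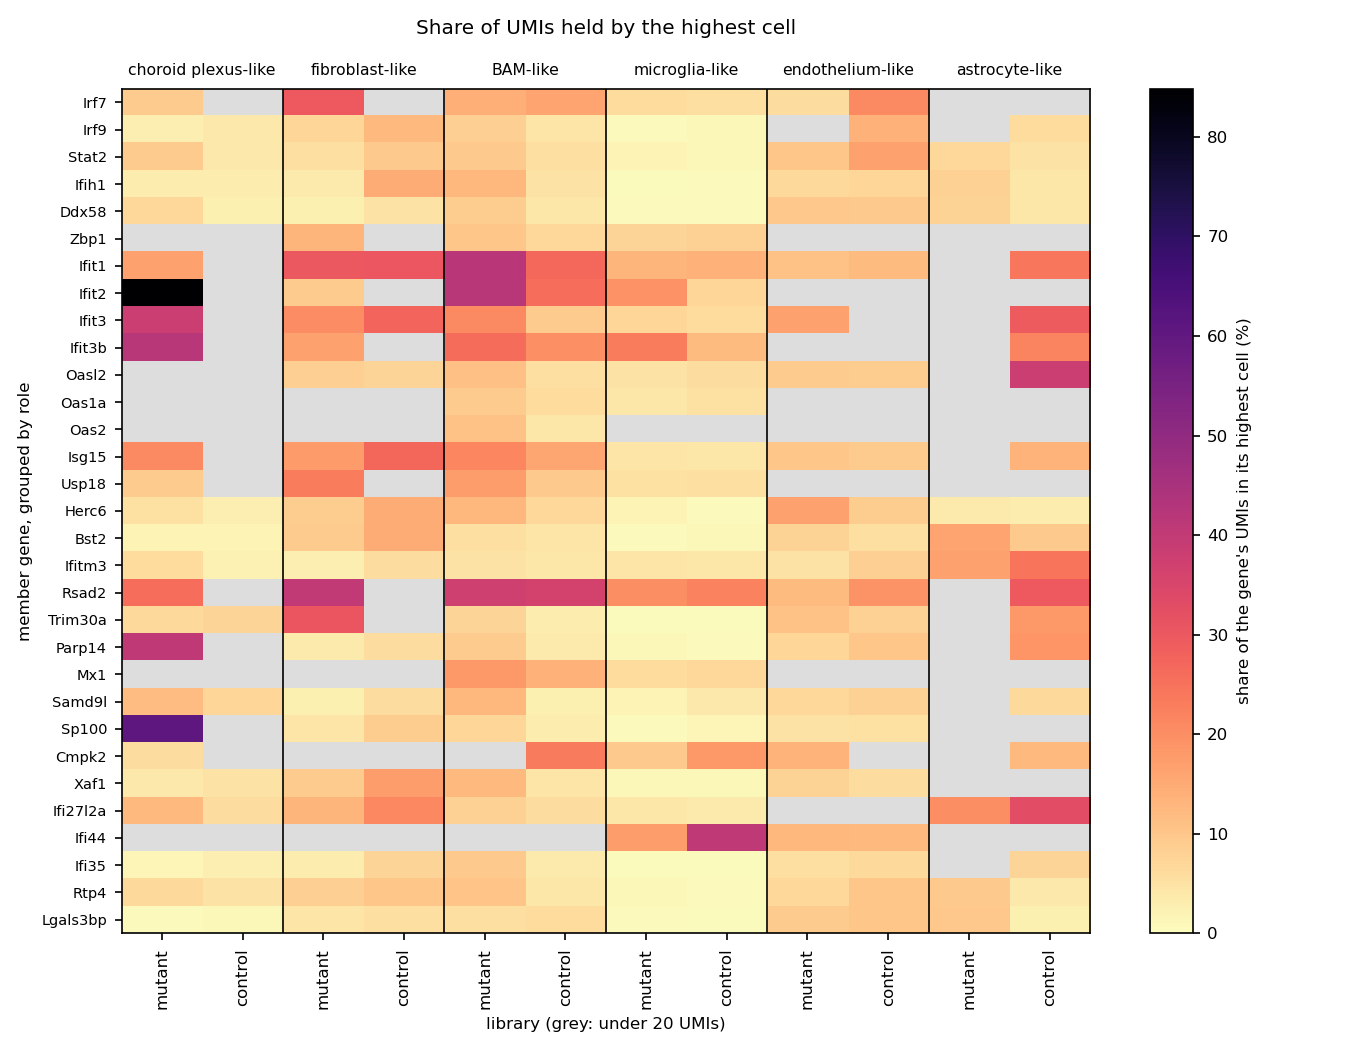
Share of a member's UMIs held by its highest cell in each class and library, in percent, with the mutant column left of the control column and grey where the member had under 20 UMIs. The darkest fields are Ifit2 and Sp100 in mutant choroid plexus-like cells at 84.8% and 60.9%, and microglia-like columns are light for members found in most cells, such as Trim30a at 0.546% in the mutant and 0.556% in the control.

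Markers of other cells differed between the libraries in some classes. In microglia-like cells granulocyte markers were at 719 CPM in the mutant (6 of 8 with a UMI) and 5.45 CPM in the control (4 of 8), and 5 mutant cells held 99% of them. The 15 most inducible members were at 239.9 CPM in those 5 cells and 82.0 CPM in the other mutant cells. Monocyte and dendritic markers were at 83.6 CPM in mutant and 26.1 CPM in control microglia-like cells (7 of 8 in each), and BAM markers at 28.9 and 88.9 CPM (8 of 8 in each). The 17 mutant cells with at least 10 UMIs of monocyte and dendritic markers had the 15 members at 197.5 CPM, against 81.2 CPM in the other mutant cells, and the 9 such control cells had them at 1033 CPM, against 86.4 CPM in the other control cells. In choroid plexus-like cells markers of monocytes and dendritic cells were at 8.04 CPM in the mutant (6 of 8) and 1.22 CPM in the control (3 of 8). Lymphocyte markers were at 2.78 CPM in the mutant (6 of 8) and 0.174 CPM in the control (2 of 8). In endothelium-like cells mural markers were at 311 CPM in the mutant (5 of 8) and 795 CPM in the control (8 of 8). Monocyte and dendritic markers were at 173 CPM in the mutant (3 of 8) and 97.0 CPM in the control (1 of 8), so the control value rests on 1 gene. Lymphocyte markers were at 0 in both. In BAM-like cells monocyte and dendritic markers were at 77.3 CPM in the mutant (5 of 8) and 56.3 CPM in the control (3 of 8). In fibroblast-like cells mural markers were at 171 CPM in the mutant (5 of 8) and 1464 CPM in the control (7 of 8). In astrocyte-like cells, where Ifit3, Rsad2 and Trim30a were lower and Ifitm3 and Ifi27l2a higher, BAM markers were at 7.05 CPM in the mutant (7 of 8) and 24.8 CPM in the control (8 of 8) and endothelial markers at 42.8 and 15.3 CPM (8 of 8 in each). The part of such cells in the results was not tested.

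The wider pathway was read from 39 genes outside the members. They are type I ligands, receptors, kinases with Stat3, inhibitors, upstream sensing genes and genes listed for interferon gamma. Iigp1, Irf1, Irgm1, Gbp2 and Igtp, named below, are from the interferon gamma group. Which interferon they answered to was not tested. Of 9 type I ligand genes, 8 including Ifnb1 had no UMI in any class of either library, and Ifnk had 4 in all. In choroid plexus-like cells none of the 21 measured among these 39 passed 1.5-fold in either direction, against 3.65% higher and 1.4% lower of all measured genes. In BAM-like cells 3 of 21 were higher and 1 was lower, against 5.1% and 6.33% of all measured genes. Iigp1, an interferon-induced GTPase, was at 157 CPM in the mutant and 53.5 CPM in the control, with a ratio of 2.93 (2.31 to 3.72). Irf1 had a ratio of 1.8 (1.28 to 2.49), Irgm1 of 1.61 (0.965 to 2.64) and the kinase gene Jak2, the lower one, of 0.584 (0.368 to 0.891). In endothelium-like cells 2 of 11 were higher and 1 was lower, against 5.64% and 6.33% of genes. The receptor chain Ifnar1 had a ratio of 1.63 (1.15 to 2.33), Gbp2 of 2.22 (1.19 to 4.36) and Stat3, the lower one, of 0.621 (0.423 to 0.907). In microglia-like cells none of the 29 measured passed 1.5-fold, against 4.09% and 4.68% of genes. In fibroblast-like cells 1 of 21 was higher and 2 were lower, against 6.46% and 5.6% of genes, with ratios of 1.56 (0.883 to 2.94) for Irgm1, 0.65 (0.40 to 1.08) for Tlr3 and 0.651 (0.467 to 0.917) for Igtp. The intervals of Irgm1 in both classes and of Tlr3 include 1. In astrocyte-like cells 2 of 15 were higher and 1 was lower, against 5.32% and 3.28% of genes, with ratios of 2.43 (1.62 to 3.63) for Ifngr2, 1.55 (1.16 to 2.06) for Irf3 and 0.538 (0.266 to 0.996) for Mavs. The receptor chain Ifnar2 was measured in all 6 classes, at 347 CPM in mutant and 289 CPM in control endothelium-like cells and 40.1 and 47.3 CPM in astrocyte-like cells.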

How the data were processed

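The deposited files are matrices of raw UMI counts with no normalisation, 1 per library, written by Cell Ranger 7.1.0 per the file headers, and the submitters' processing notes name the builds GRCm38.p6 and mm10. Per the labels' protocols the libraries are of the 10x Chromium Next GEM 3′ v3.1 kind. The sources used here do not give aligner settings, the use of introns and strand in counting, or how cells were called.

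Barcodes needed at least 500 genes and no more than 10% mitochondrial UMIs. Scrublet in scanpy 1.11.5 marked 2.65% of mutant and 2.11% of control barcodes as doublets, which were removed. Cells were gated on 8 markers for each class, with 13 marker classes in all (1 of them with 7 markers found), and UMIs were summed per class and library. CPM carry exact Poisson intervals, ratios exact conditional intervals and shares Clopper-Pearson intervals (scipy 1.17.1). The limit for 0 cells is 3 cells of the total. Leiden clusters used 2000 variable genes, 30 components and 15 neighbours. TMM factors came from edgeR 4.0.16, and no count model was fitted. Sums, intervals and thinning were tested on simulated data. The simulated counts were Poisson and did not gather in single cells as some members did here. The test therefore does not show that the intervals hold for such members. Counts from 3′ ends are not scaled by length, so levels of different genes are not compared.

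The members and lists were chosen with earlier results of these data known. Named genes were, per class, the measured members with the 3 highest and 3 lowest ratios past 1.5-fold, the 5 with the highest CPM, those with at least 25% of 20 or more UMIs in 1 cell, and up to 4 pathway genes past 1.5-fold. Members named beyond these, so that all 31 are covered, were chosen after their values were seen. A pathway gene is not reported here and is left out of the counts of pathway genes.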

Additional observations from a re-analysis of the deposited data

Results flagged for a closer look

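Among the 31 members, 4 passed 1.5-fold in opposite directions in different classes. These differences between classes were not tested. Ifit3 had ratios, mutant over control, of 5.09 in choroid plexus-like, 3.04 in endothelium-like and 1.68 in BAM-like cells, and of 0.656 in microglia-like and 0.499 in astrocyte-like cells. Rsad2 had a ratio of 2.47 in BAM-like and 0.239 in astrocyte-like cells. Trim30a had a ratio of 1.54 in choroid plexus-like and 0.542 in astrocyte-like cells, the second on 7 mutant and 44 control UMIs. Cmpk2 had a ratio of 1.85 in choroid plexus-like and 0.63 in microglia-like cells, the second on 32 mutant and 50 control UMIs. The intervals of Trim30a in astrocyte-like cells and of Cmpk2 in microglia-like cells include 1. Without the highest 5% of cells, the ratio of Ifit3 was 0.913 in choroid plexus-like and 1.0 in astrocyte-like cells, and that of Trim30a was 0.833 and 0.994. Under the same setting the ratio of Ifit3 was 0.746 in microglia-like cells. That of Rsad2 was 0.717 in astrocyte-like cells and that of Cmpk2 0.936 in microglia-like cells. None of the 4 members was then past 1.5-fold in both directions. However, the cells left out were ranked on a sum that includes Ifit3, Rsad2 and Cmpk2, so a loss of their UMIs was built in. Few UMIs remained in some classes, and Rsad2 had only 4 in mutant astrocyte-like cells before the cut. This setting therefore does not decide whether the directions differ between classes.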

How the results depend on the processing

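No paired analysis was possible because there is 1 library per genotype. Leaving out the 5 cells, or the 5% of cells, with the highest summed CPM of the 15 most inducible members was added after seeing the data. Either cut removes UMIs of these members by design, and 5 cells are a larger part of a class in the library where it has fewer cells. Counting error, the depth of endothelium-like cells and the 99 mutant BAM-like cells limit what can be read, and the causes of the shifts below were not tested. The share of all genes past the fold was not computed under the settings below, so their counts of members have no such share beside them. The summed ratio in choroid plexus-like cells (1.16) was 1.12 with 1 UMI per positive marker, 1.09 with clusters named by the gate, 1.11 with a mitochondrial cap of 20%, 1.12 with TMM scaling, 1.08 without 5 cells and 0.978 without 5% of cells, and their 9 members past 1.5-fold were 14 with a minimum of 20 UMIs and 2 without 5% of cells. In fibroblast-like cells the summed ratio (0.934) was 1.18 with clusters and 0.889 without 5% of cells. Their count of 0 was 2 with 1 UMI per marker, 5 with the strict gate, 7 with clusters, 1 with doublets kept, 1 at the 20% cap, 2 with equal weight per cell, 1 without each gene's highest cell, 2 without 5 cells, 3 without 5% of cells and 3 with the minimum of 20 UMIs. In BAM-like cells the summed ratio (1.24) was 1.11 with clusters, 1.19 without each gene's highest cell, 1.1 without 5 cells and 1.16 without 5% of cells, and the count of 9 was 5 without 5 cells and 5 at a fold of 2. At a fold of 2 the count was 0 in microglia-like cells (against 3) and 2 in endothelium-like cells (against 7), where the summed ratio (1.13) was 1.01 with clusters. In astrocyte-like cells the summed ratio (1.01) was 1.5 at the 20% cap, 1.17 without 5 cells and 1.22 without 5% of cells, and the count of 5 was 9, 2 and 3 under these and 10 with the minimum of 20 UMIs. Of 330 ratios of 33 named members by class over these settings, 293 moved by less than the counting interval, 29 moved by more and 8 changed side. These 8 were Ifit3b in BAM-like cells (0.893 with equal weight, 0.981 without 5 cells), Ifit3 and Trim30a in astrocyte-like cells (1.07 and 1.16 at the 20% cap), Ifit3 there without 5% of cells (1.0), and Ifit1 (0.893), Ifit3 (0.913) and Trim30a (0.833) in choroid plexus-like cells without 5% of cells. At a cut of 2 of the 15 members, BAM-like cells past it were 26.3% in the mutant and 22.6% in the control, and at a cut of 5 they were 5.26% and 4.37%. Of the 12 shares of cells with several members, 6 moved at a cut of 2, 8 at a cut of 5 and 5 at 4000 UMIs. At 4000 UMIs endothelium-like shares were 45.8% (32.7 to 59.2) in the mutant and 32.7% (20.7 to 46.7) in the control, and the intervals overlap. Only 59 of 140 mutant and 55 of 113 control endothelium-like cells were that deep.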
